A study of Mus musculus with 8 samples.

Results

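Natural killer T (NKT) cells are T cells that carry receptors of the NK lineage and are abundant in mouse liver. Their development depends on Zbtb16, which encodes the transcription factor PLZF. The classical form reads lipids on CD1d through a nearly invariant T cell receptor whose alpha chain joins the Trav11 family to Traj18. Mature cells are usually sorted into an NKT1 type with T-bet (Tbx21) and interferon gamma, an NKT2 type with Gata3 and interleukin 4, and an NKT17 type with interleukin 17.

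The cells described here are 407 of 21482 barcodes kept from 6 single-cell RNA libraries of mouse liver. A barcode marks 1 droplet, and a UMI (unique molecular identifier) marks 1 captured RNA molecule. Barcodes were kept with at least 500 gene UMIs, at least 300 genes and at most 20% mitochondrial UMIs. Of these, 6251 had a UMI of a CD3 chain (Cd3d, Cd3e or Cd3g), 901 of those had a Zbtb16 UMI, and 719 of those had a UMI of Klrb1c (NK1.1), Cxcr6 (a liver homing receptor) or Il2rb (a chain of the IL-2 and IL-15 receptors). Removing 312 barcodes with a UMI of Cd8a, Cd8b1, Foxp3, Trdc, Cd79a, Lyz2 or C1qa left the 407. Because measured UMIs chose the cells, the levels of these 14 genes describe the choice and were left out of the tests between sets of cells. In the main comparison of knockout with control cells, 7 of them stayed among the genes tested, and none passed.

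The tumours were hepatocellular carcinomas started in 8 to 10 week old C57BL/6 animals by hydrodynamic tail vein injection of 30 µg of plasmid. The mixture held CRISPR-Cas9 vectors with a guide against Trp53, a c-Myc transposon and the SB13 transposase, and tumour-bearing livers were taken 4 to 5 weeks later. The 3 knockout libraries came from Ncr1iCre, Nr4a1fl/fl mice, in which Cre follows Ncr1, the gene of the NK receptor NKp46. The 3 control libraries came from Ncr1WT, Nr4a1fl/fl mice, which carry the floxed alleles without Cre, so both groups were floxed, injected and tumour-bearing. Knockout 3 pooled 2 mice and control 3 pooled 3 mice, told apart by hashtag antibodies. NKT cells mostly lack NKp46, so the floxed gene need not be deleted in them.

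Knockout libraries 1, 2 and 3 gave 68, 1 and 129 NKT-like cells, and control libraries 1, 2 and 3 gave 39, 0 and 170. The libraries held 4126740 to 122609032 gene UMIs over 33696 genes. Both libraries numbered 2 kept few barcodes, 134 in knockout 2 and 549 in control 2, and their median mitochondrial share before filtering was 75.1% in knockout 2 and 27.9% in control 2, against 6.7% to 10.0% elsewhere. They entered no test between genes. The labels describe male mice. Over all kept barcodes Xist, which is transcribed from the inactive X of female cells, stood at 711 CPM (UMIs of the gene per 1000000 UMIs of those cells) in knockout 1 and 796 CPM in control 1, and at 0 to 1.0 CPM in the other 4 libraries. The sum of 4 Y-linked genes was 0.91 CPM in knockout 1 and 1.33 CPM in control 1, against 108 to 243 CPM in the other 4. Both libraries numbered 1 therefore go against the labelled sex. They also differ from those numbered 3 in the Cell Ranger version of their file headers. In all, 41 kept barcodes occurred in more than 1 library, and 5 NKT-like barcodes were among them, none of them NKT-like in both.

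Zbtb16 rested on 1 UMI in 171 of the 407 cells, on 2 UMIs in 88 and on 3 or more in 148, with at most 18 in a cell. A cell with 1 Zbtb16 UMI sits just inside the rule, and the 960 T cells with an NK gene and no Zbtb16 UMI sit just outside it. Cd3g was seen in 330 cells, Cd3d in 312 and Cd3e in 310. Il2rb was seen in 333, Cxcr6 in 289 and Klrb1c in 192, and 120 cells had all 3 of these NK genes. Their UMIs ran from 703 to 169392, with a median of 5171.

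A small set of very deep barcodes stood apart from the rest. The 30 NKT-like barcodes over 20000 UMIs were 3 from knockout 1, 9 from knockout 3, 1 from control 1 and 17 from control 3. They held 54.4% of all NKT-like UMIs. Hepatocyte genes took 1.68% of their UMIs, against 0.085% in the 377 other cells. T cell receptor constant genes gave them 105 CPM, against 1960 CPM in the others. Alb, the serum albumin gene of hepatocytes, was seen in 96.7% of them against 38.7% of the 377 others. The cell cycle gene Mki67 was seen in 83.3% of them, against 10.1% of the others. Their median depth was 81773.5 UMIs against 4895, and a deeper cell has more chance to show a gene. The Alb and Mki67 shares were not compared at equal depth, so they do not show a higher level of either gene. None of the 30 carried Traj18 or Trav11. Sums over cells are therefore given for all cells and for cells of at most 20000 UMIs, a limit set after this was seen. The 377 cells under it were 65, 1 and 120 in knockout libraries 1, 2 and 3 and 38, 0 and 153 in control libraries 1, 2 and 3.

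**Figure D1:**
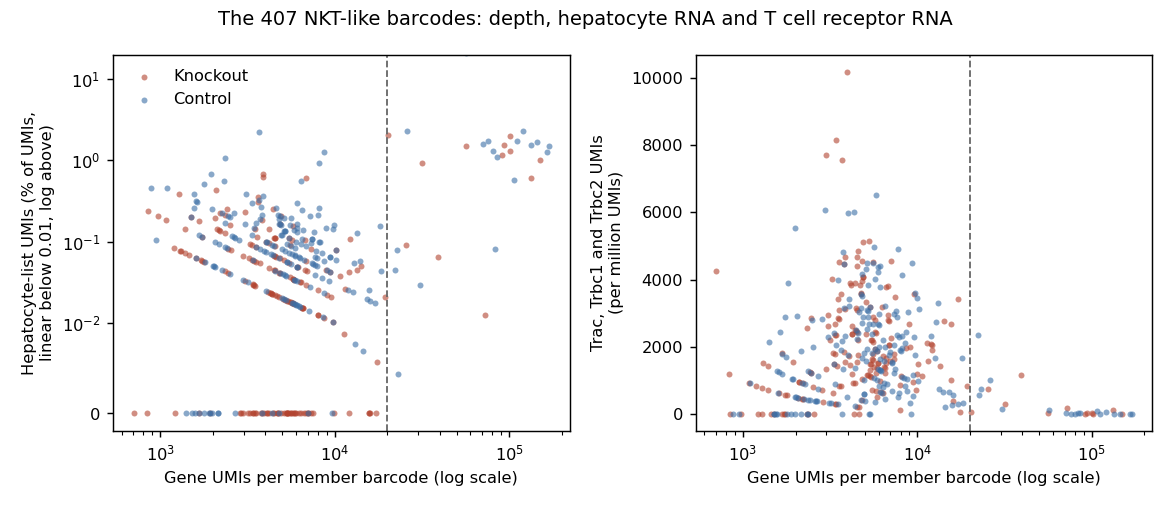
Each point is 1 of the 407 NKT-like barcodes, placed by its gene UMIs (log axis) and, on the left, by the percent of them in hepatocyte genes (log axis, linear near 0) or, on the right, by T cell receptor constant UMIs in CPM, in knockout and control libraries. The dashed line marks 20000 UMIs, and the 30 barcodes beyond it hold 54.4% of the UMIs. A control 3 barcode at 20.7% lies just above the end of the left axis.

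The alpha chain segment of the invariant receptor is the independent check on the name, since the rule used no variable or joining segment. The sequences below are the segments the check counts. The capitals in Traj18 mark a match to TTTGGNNNNGGN, a form of the codons for the Phe-Gly-X-Gly motif of joining segments that 36 of the 60 Traj segments of the annotation hold on their own strand, and in the variable segments they mark the cysteine codon that ends the framework. The variable segments are shown as the last bases, 283 to 342, of the stretch they share.
Traj18: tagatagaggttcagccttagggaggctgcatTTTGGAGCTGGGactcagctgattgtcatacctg
Trav11: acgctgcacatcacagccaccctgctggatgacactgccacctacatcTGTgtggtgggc
Trav11d: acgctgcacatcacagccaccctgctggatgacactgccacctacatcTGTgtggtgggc
In GENCODE's mouse annotation on GRCm38, Traj18 lies at chr14:54200777-54200842, Trav11 at chr14:53519303-53519859 and Trav11d at chr14:52824357-52824912, all on the plus strand as T cell receptor gene segments. The deposited counts were made on GRCm39, so these positions name the segments and were not used to count. In this annotation the transcripts of Trav11 and Trav11d did not differ in any of 342 bases, so a read within those bases matches both. The reference used for counting was not compared.

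Traj18 was seen in 31 of the 407 cells with 36 UMIs. Of the 60 Traj segments in the tables, 3 others had a UMI, each in 1 cell. Trav11 was seen in 26 cells and Trav11d in none. In all, 47 cells had either segment and 10 had both. A 3′ library reads the far end of the transcript, so a cell without these UMIs need not lack the rearrangement.

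Among cells of at most 20000 UMIs in libraries with at least 10 cells of a set, Traj18 was seen in 8.24% of NKT-like cells (31 of 376). It was seen in 1.40% of Zbtb16-negative T cells with an NK gene, 0.714% of conventional CD4 T cells, 0.335% of CD3-negative NK-type cells and 0 of 3675 B cells. By library it was 13.8% in knockout 1, 5.8% in knockout 3, 7.9% in control 1 and 7.8% in control 3. Each stood above the Zbtb16-negative T cells of its library, at 2.8% in knockout 1, 1.1% in knockout 3, 1.1% in control 1 and 1.2% in control 3. After each cell was thinned to 2000 UMIs the NKT-like shares were 3.3% in knockout 1, 2.9% in knockout 3, 7.4% in control 1 and 4.3% in control 3, against 1.6%, 0.685%, 0 and 0.93% of Zbtb16-negative T cells in the same libraries. Those thinned shares leave out 4, 18, 11 and 13 NKT-like cells and rest on 2, 3, 2 and 6 cells. Trav11 was seen in 6.91% of NKT-like cells, 0.971% of Zbtb16-negative T cells, 0 of 140 CD4 T cells and 0.112% of NK-type cells. Trbv13-2, a beta segment frequent in invariant receptors, was seen in 9.04% of NKT-like cells and 3.02% of Zbtb16-negative T cells.

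**Figure D2:**
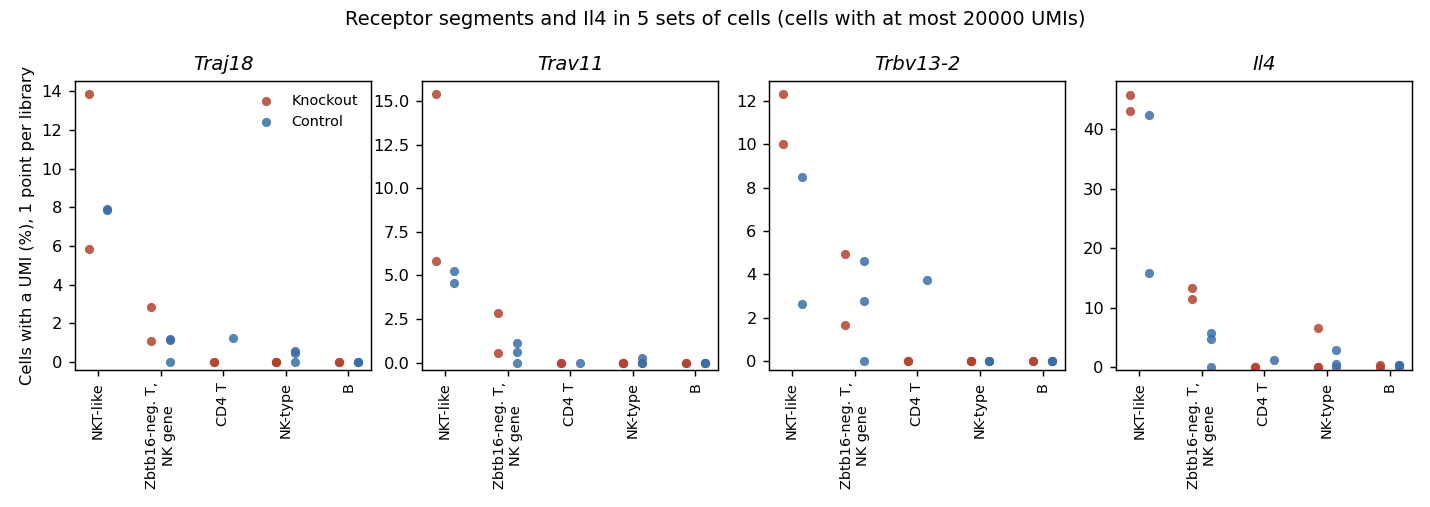
Percent of cells with a UMI of Traj18, Trav11, Trbv13-2 and Il4 in NKT-like cells, 3 comparison sets and B cells, 1 point per library, knockout left of control, in cells of at most 20000 UMIs. Traj18 reached 5.8% to 13.8% of NKT-like cells and at most 2.8% of the Zbtb16-negative T cells.

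Constant genes of both receptor types were seen. Of the 377 cells, 79.3% had Trbc2, 63.9% had Trac and 57.6% had Trbc1. A gamma chain UMI (Trgv2, Trgc1, Trgc2 or Trgc4) was seen in 188 of the 377 cells, and 128 of these also had Trac. The share was 66.2% in knockout 1, 45.8% in knockout 3, 57.9% in control 1 and 44.4% in control 3. The gamma constant genes are near copies of each other, so the split among them is uncertain. Trdc, the delta constant gene, is at 0 in every cell because the rule removed it. The name NKT-like is kept here for cells that meet the rule, of which 47 show a segment of the invariant receptor.

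NKT1 and NKT2 marker genes were both common. Of the 377 cells, Tbx21 was seen in 52.5%, Ifng in 43.2%, Il4 in 40.8% and Gata3 in 34.5%. Of the 198 cells with Tbx21, 95 also had Il4, and 77 cells had both Ifng and Il4. Whether these genes coincide more often than their shares give was not tested. The chemokine genes Ccl5 (74.5%) and Xcl1 (50.9%) and the granule genes Nkg7 (71.9%) and Gzmb (40.3%) were common. Il13, an NKT2 cytokine, was seen in none. In libraries with at least 10 cells of a set, Il4 was seen in 41.0% of NKT-like cells (154 of 376), against 0.327% of B cells (12 of 3675), which should lack it. Under the limit the median depth per library was 3916 to 5413 UMIs in NKT-like cells of the 4 libraries used and 2023.5 to 3264 UMIs in B cells. Tbx21 was seen in 52.7% of these NKT-like cells, 44.1% of Zbtb16-negative T cells and 54.3% of NK-type cells. For Xcl1 the shares were 51.1%, 40.1% and 49.7%, and for Ifng 43.4%, 30.7% and 28.6%. For Gata3 they were 34.3%, 23.0% and 20.2%, and for Il4 41.0%, 7.44% and 2.23%.

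Tbx21 was seen in 58.5% of NKT-like cells of knockout 1 and 45.0% of knockout 3, against 52.6% of control 1 and 56.2% of control 3. The groups overlapped. Il4 was seen in 43.1% of cells of knockout 1 and 45.8% of knockout 3, against 15.8% of control 1 and 42.5% of control 3. Control 1 was low, with 6 of its 38 cells, and the other 3 libraries were alike. Thinned to 2000 UMIs, Il4 was seen in 19.7% of cells of knockout 1 and 30.4% of knockout 3, against 0 of 27 in control 1 and 24.3% of control 3.

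Il17a, the NKT17 cytokine, was seen in 2 of the 377 cells. A knockout 1 cell held 65 Il17a UMIs and 5 Il23r UMIs, and a control 3 cell held 4 Il17a UMIs and 2 Il23r UMIs. Gamma delta T cells without a Trdc UMI were not separated from NKT17 cells here.

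A group of 46 cells carried Gzma, the granzyme A gene, with 6.2% of cells of knockout 1 and 3.3% of knockout 3, against 26.3% of control 1 and 17.6% of control 3. Cells with Gzma were deeper, with a median of 6777 UMIs against 4815. They had Ncr1 in 37.0%, Klrd1 in 65.2% and Eomes, an NK cell transcription factor, in 13.0%, against 3.6%, 32.0% and 0.3% of cells without Gzma. By contrast, the 47 cells with an invariant segment had Il4 in 66.0%, Ifng in 59.6%, Gzma in 8.5% and Ncr1 in none, against 37.3%, 40.9%, 12.7% and 8.8% of the 330 cells without one. Il4 was thus seen more often in cells with Traj18 or Trav11 than in cells without, and Ncr1 more often in cells with Gzma. Both are descriptions of cells pooled over libraries and not tests over samples. Of the cells with Gzma, 10 came from control 1 and 27 from control 3, against 4, 1 and 4 from knockout libraries 1, 2 and 3. Ncr1 also stood higher in the control libraries, as given below. Whether these links hold within libraries was not tested.

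**Figure D3:**
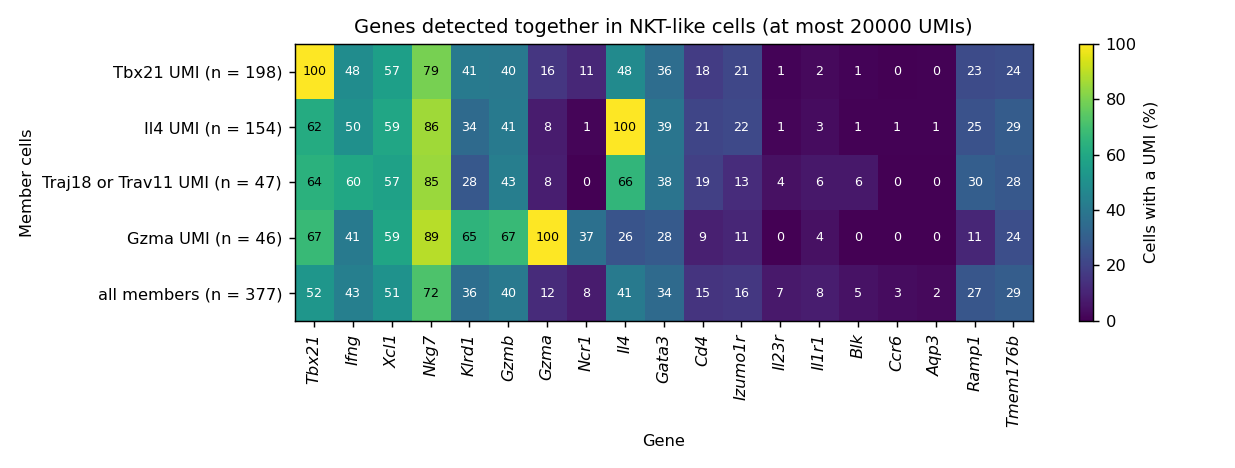
Percent of cells with a UMI of each gene (columns, printed and coloured) among NKT-like cells of at most 20000 UMIs that have a UMI of Tbx21, Il4, an invariant segment or Gzma, and among all 377 (rows, which overlap). Il4 was seen in 66.0% of the 47 cells with a segment, and Ncr1 in 37.0% of the 46 with Gzma.

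The closest comparison set is the 960 T cells that meet the rest of the rule but have no Zbtb16 UMI. Sums of UMIs per library were compared within libraries by edgeR's quasi-likelihood test with Benjamini-Hochberg adjustment, with an adjusted p under 0.05 as the threshold and the genes of the rule left out. Over all cells, 1001 of 8250 genes were higher in NKT-like cells (12.1%) and 692 lower (8.39%). Hepatocyte genes were 15 of 16 higher in that fit, which the deep barcodes enter. In cells of at most 20000 UMIs, 213 of 7280 genes were higher (2.93%) and 128 lower (1.76%), and none of 13 hepatocyte genes passed in either direction. Without knockout 1 the count of genes past the threshold was 180, without knockout 3 it was 125 and without control 3 it was 179. The values that follow are for cells of at most 20000 UMIs.

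Genes of the NKT17 list and Il4 were higher in NKT-like cells. Of 8 NKT17 genes tested, 7 were higher and none lower, with a median log2 fold change of 1.77 against -0.01 over all genes. Il23r stood at 40.6, 19.6, 50.6 and 56.7 CPM in NKT-like cells of knockout 1, knockout 3, control 1 and control 3, against 3.87, 1.31, 0 and 1.62 CPM in Zbtb16-negative cells. Every NKT-like value was above every Zbtb16-negative one, with a log2 fold change of 4.52 ± 0.44 (SE, edgeR adjusted p = 6.46e-06). Ramp1, a coreceptor for calcitonin gene-related peptide, was 2.01 ± 0.19 higher on the log2 scale. Tmem176b, an ion channel gene, was 1.72 ± 0.19 higher.

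Il4, the main NKT2 cytokine, stood at 147, 210, 45.5 and 184 CPM in NKT-like cells of knockout 1, knockout 3, control 1 and control 3, against 46.4, 45.8, 17.6 and 25.1 CPM in Zbtb16-negative cells. It was higher in all 4 libraries, by 2.26 ± 0.21 (SE) on the log2 scale, with an edgeR adjusted p of 4.02e-06. Over all cells it was 1.48 higher with an edgeR adjusted p of 0.00443. Of 10 NKT2 genes tested, 5 were higher and 1 lower. Icos, a costimulatory receptor, was 1.06 ± 0.15 higher, but only 0.36 higher over all cells, where it did not pass (edgeR adjusted p = 0.242). Il2ra, the alpha chain of the IL-2 receptor, was 1.93 ± 0.23 higher.

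Immediate early genes, which respond within minutes to antigen receptor and stress signals, were also higher. Of 23 tested, 7 were higher and none lower, with a median log2 fold change of 0.44, but over all cells none were higher and 1 lower, with a median of -0.20. Junb stood at 1754, 1832, 1154 and 1285 CPM in NKT-like cells of knockout 1, knockout 3, control 1 and control 3, against 946, 809, 796 and 893 CPM in Zbtb16-negative cells, and Dusp1 was 1.02 ± 0.16 higher on the log2 scale. Nr4a1, which encodes the orphan nuclear receptor NUR77 and responds to antigen receptor signals, stood at 170, 116, 75.9 and 65.8 CPM in NKT-like cells and at 115, 79.8, 65.3 and 52.6 CPM in Zbtb16-negative cells of those libraries. It did not pass (log2 fold change 0.43 ± 0.16, edgeR adjusted p = 0.159), and over all cells its fold change was -0.31.

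NK receptor genes were lower in NKT-like cells as a list. Of 26 NK receptor genes tested, 11 were lower and 1 was higher. The higher one was Cd226, an activating adhesion receptor, at 1.08 on the log2 scale. The Ly49 receptor genes Klra7, Klra4 and Klra8 had log2 fold changes of -2.37, -2.22 and -1.94. Tnfrsf4, the costimulatory receptor OX40, reached at most 5.67 CPM in NKT-like cells, against 22.6 to 106 CPM in Zbtb16-negative cells. Of 4 genes tested from a list of regulatory T cell and group 2 innate lymphoid cell markers, 3 were lower and 1 higher. Il2ra was the higher one, at 1.93 on the log2 scale. Ikzf2, a regulatory T cell marker, and Cd4 had log2 fold changes of -1.44 and -1.39. The part of such cells in the Tnfrsf4 difference was not tested.

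Among effector genes, Ccl5, a chemokine gene, had a log2 fold change of -1.19 ± 0.11 and Gzma one of -2.06 ± 0.30. Of 20 NKT1 genes, 4 were higher and 7 lower. Of 11 markers of conventional NK cells tested, 5 were lower and 1 higher. This list shares genes with the NK receptor list above, Klra4 among them, so the counts are not separate results. Gamma chain genes moved the other way, with 4 of 4 tested higher, of which Trgc1 stood at 83.8, 55.3, 70.8 and 54.4 CPM in NKT-like cells of knockout 1, knockout 3, control 1 and control 3, against 33.5, 40.5, 15.1 and 6.87 CPM in Zbtb16-negative cells. The part of either marker list in the other differences was not tested. St6galnac3, a sialyltransferase gene, had the smallest p of all genes, with a log2 fold change of 1.50 ± 0.10 (SE, edgeR adjusted p = 1.45e-07).

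**Figure D4:**
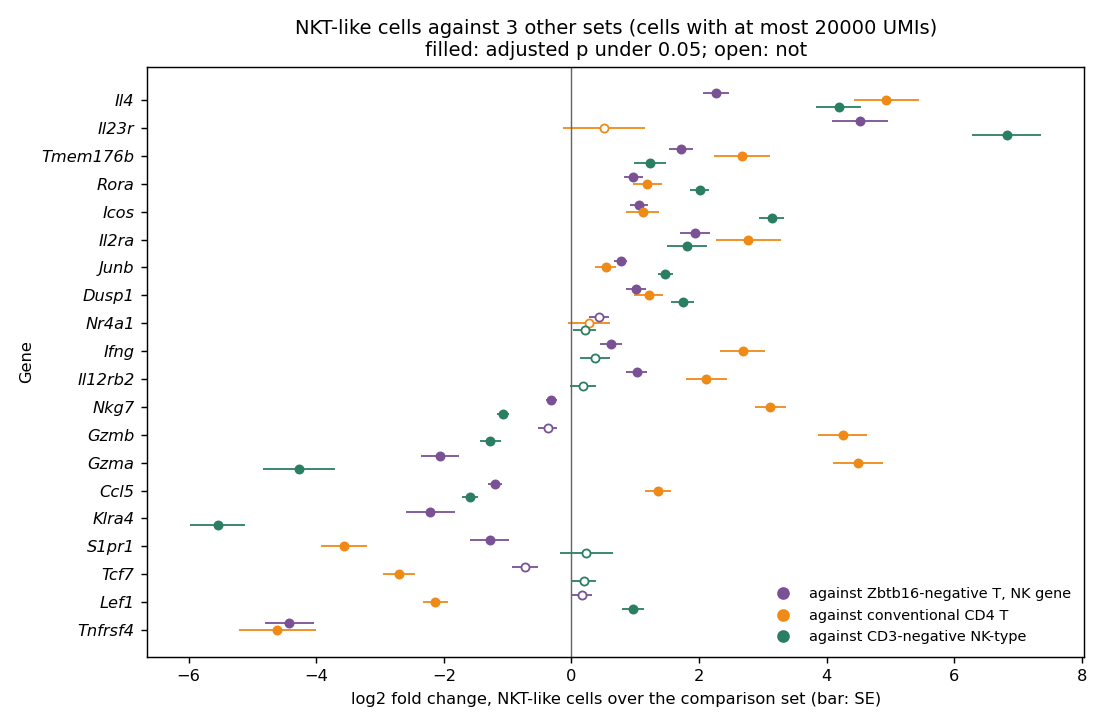
Log2 fold changes with SE of named genes in NKT-like cells against Zbtb16-negative T cells, conventional CD4 T cells and CD3-negative NK-type cells, from edgeR in cells of at most 20000 UMIs, with filled points for an adjusted p under 0.05. Il4 is above 0 in all 3 comparisons, at 2.26, 4.93 and 4.19.

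Against the 149 conventional CD4 T cells, defined by a CD3 and a Cd4 UMI with none of Zbtb16 and the NK genes, the NKT-like cells had an effector profile. Every NKT-like cell had a UMI of these NK genes and no CD4 T cell did, so the choice of cells bears on this profile. Over all cells of knockout 1, knockout 3 and control 3, the only libraries with 10 cells of both sets, edgeR called none of 7164 genes higher and 4 lower (0.0558%), while DESeq2 called 62. The lower ones were Ccr7, Dapl1, Il6ra and St8sia6. In cells of at most 20000 UMIs edgeR called 251 of 5247 genes higher (4.78%) and 263 lower (5.01%), so most calls below, though not their directions, depend on leaving the deep barcodes out. Over all cells the medians of the NKT1, NK receptor and naive T cell lists were 2.38, 2.35 and -2.22 on the log2 scale, with none, none and 2 of their genes called. Without knockout 1 the count was 300, and without control 3 it was 330. The NKT-like cells are the same as in the comparison above, so the 3 sets of results are not independent.

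Of 20 NKT1 genes, 17 were higher in NKT-like cells and none lower, with a median log2 fold change of 2.65. Nkg7, a granule membrane gene, stood at 990, 784 and 783 CPM in NKT-like cells of knockout 1, knockout 3 and control 3, against 138, 64.0 and 76.7 CPM in CD4 T cells. It was 3.11 ± 0.25 higher on the log2 scale (SE, edgeR adjusted p = 1.45e-09). Gzmb was 4.25 ± 0.38 higher, Ifng 2.68 ± 0.35 higher and Il12rb2, a chain of the IL-12 receptor, 2.11 higher. Of 11 NK receptor genes tested, 10 were higher and none lower, among them Cd160 at 5.36 ± 0.55. The choice of both sets by NK genes bears on the NKT1 and NK receptor lists. Il4 stood at 147, 210 and 184 CPM in NKT-like cells of knockout 1, knockout 3 and control 3, against 0, 0 and 8.84 CPM in CD4 T cells, where 1 of 140 cells had a UMI.

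Naive T cell genes were lower in NKT-like cells, 13 of 15 tested and none higher, with a median log2 fold change of -2.13. Ccr7, the chemokine receptor for lymph node entry, stood at 2.54, 1.78 and 9.08 CPM in NKT-like cells of knockout 1, knockout 3 and control 3, against 149, 135 and 245 CPM in CD4 T cells (log2 fold change -5.27 ± 0.43, edgeR adjusted p = 2.06e-09). It also passed over all cells, with an edgeR adjusted p of 0.0414. S1pr1, the receptor for tissue egress, and the transcription factor genes Lef1 and Tcf7 had log2 fold changes of -3.57, -2.13 and -2.70. Of 11 NKT2 genes, 5 were higher and 3 lower, the lower ones being Il6ra, Lef1 and Slamf6.

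The CD3-negative NK-type cells, 927 barcodes with a Klrb1c or Ncr1 UMI and no CD3 UMI, share NK receptors with the NKT-like cells. Over all cells edgeR called 12 of 9221 genes higher in NKT-like cells (0.13%) and 9 lower (0.0976%), while DESeq2 called 207. In cells of at most 20000 UMIs edgeR called 467 of 6600 genes higher (7.08%) and 341 lower (5.17%), and 329 in all without control 3. Trac, the alpha constant gene, stood at 399, 292, 238 and 344 CPM in NKT-like cells of knockout 1, knockout 3, control 1 and control 3, against 9.76, 9.91, 11.5 and 9.03 CPM in NK-type cells. Its log2 fold change was 5.00 ± 0.21, and 4.67 over all cells (edgeR adjusted p = 0.00377).

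T cell and type 17 genes were higher than in NK-type cells. Of 14 T cell receptor and costimulation genes tested, 8 were higher and none lower, and the rule's demand for CD3 bears on these. Of 8 NKT17 genes 7 were higher and none lower. Il7r, the IL-7 receptor, was 2.97 ± 0.24 higher on the log2 scale, Rora 2.01 ± 0.16 higher and Icos 3.14 ± 0.20 higher. Of 22 immediate early genes 8 were higher and none lower, with Junb 1.47 ± 0.12 higher, whereas none passed over all cells. Nr4a1 was 0.21 ± 0.18 higher and did not pass (edgeR adjusted p = 0.547), and its value over all cells had the other sign.

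NK effector genes were lower. Of 24 NK receptor genes tested, 18 were lower and 1 higher, and of 15 cytotoxic genes 9 were lower and 1 higher. Every NK-type cell had a Klrb1c or Ncr1 UMI, while NKT-like cells could enter without either. The choice of cells therefore bears on both lists. Klra8, the Ly49H receptor, stood at 0, 25.0, 10.1 and 9.08 CPM in NKT-like cells of knockout 1, knockout 3, control 1 and control 3, against 332, 523, 363 and 610 CPM in NK-type cells. Prf1, the perforin gene, stood at 12.7, 39.2, 121 and 42.0 CPM in NKT-like cells of knockout 1, knockout 3, control 1 and control 3, against 666, 861, 558 and 497 CPM in NK-type cells, with no overlap. The NK transcription factor genes Irf8 and Zeb2 had log2 fold changes of -3.06 and -2.27. Nkg7, far above its level in CD4 T cells, had a log2 fold change of -1.08 ± 0.09 against NK-type cells.

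Knockout and control mice were compared first by the share of NKT-like cells among CD3 barcodes. The share was 9.28% in knockout 1 (68 of 733), 11.1% in knockout 2 (1 of 9) and 10.8% in knockout 3 (129 of 1191), against 11.1% in control 1 (39 of 352), 0 in control 2 (0 of 38) and 4.33% in control 3 (170 of 3928). The groups overlapped, since control 1 was as high as the knockout libraries. The exact 95% binomial intervals, which cover counting error only, were 0.281% to 48.2% for knockout 2 and up to 9.25% for control 2. Means were 10.4% ± 0.988 in knockout libraries and 5.14% ± 5.58 in control libraries (SD, n = 3 each). The difference was 5.27 percentage points (exact two-sided permutation test, p = 0.3, with 0.1 the smallest possible). Without both libraries numbered 2 it was 2.35 points.

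Within library 3 the hashtags gave shares for single mice. They were 7.12% (28 of 393) and 15.7% (67 of 427) in the 2 knockout mice, against 3.65% (41 of 1124), 5.06% (81 of 1600) and 3.21% (17 of 530) in the 3 control mice. Both knockout mice were above the 3 control mice, while knockout 1 was below control 1 in the libraries with Xist. The hashtags gave no mouse for 371 CD3 barcodes of knockout 3, of which 34 were NKT-like. In control 3 they gave none for 674, of which 31 were NKT-like. Mice of 1 pool share a library, so their shares were not tested.

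In gene levels, edgeR called none of 8988 genes between knockout and control NKT-like cells in either direction (0% of genes), with 53 genes at an unadjusted p under 0.05, and DESeq2 also called none. In cells of at most 20000 UMIs edgeR called none of 6361 genes, with 150 at an unadjusted p under 0.05. These fits rest on 2 libraries a group. Because libraries numbered 1 and 3 differed in Xist and Y-linked genes and in Cell Ranger version, the fit was repeated with that difference as a term. It still called none over all cells. In cells of at most 20000 UMIs it called 11 genes higher (0.173%) and 27 lower (0.424%), with 1 residual degree of freedom, so its p-values lean on the spread shared across genes. This fit was added after the data were seen. Without the term, genes passed in cells of at most 20000 UMIs only when 1 knockout library was left out, 22 without knockout 1 and 68 without knockout 3.

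NK receptor and adaptor genes were lower in knockout NKT-like cells in that fit, 8 of 21 tested and none higher. Without the term none of the 21 passed, 2 had fold changes above 0, and their median log2 fold change was -1.24 against -0.02 over all genes. The 8 include Ncr1, Klre1 and the signalling adaptors Fcer1g and Tyrobp. Ncr1, the driver gene of the Cre, stood at 7.62 CPM in knockout 1 and 8.91 CPM in knockout 3, against 172 CPM in control 1 and 84.0 CPM in control 3. The groups did not overlap, and the log2 fold change was -3.83 ± 0.53 (SE, edgeR adjusted p = 0.535), or -3.78 ± 0.50 with the term (edgeR adjusted p = 8.29e-11). In CD3-negative NK-type cells Ncr1 chose the cells, and it stood there at 220 to 632 CPM in the knockout libraries and 642 to 826 CPM in the control libraries. Klre1 stood at 117 CPM in knockout 1 and 114 CPM in knockout 3, against 552 CPM in control 1 and 177 CPM in control 3. Fcer1g stood at 91.4 CPM in knockout 1 and 271 CPM in knockout 3, against 805 CPM in control 1 and 263 CPM in control 3, so its groups overlapped. Klre1, Fcer1g and Tyrobp were chosen after their values were seen.

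Gzma stood at 76.2 CPM in knockout 1 and 164 CPM in knockout 3, against 1007 CPM in control 1 and 893 CPM in control 3. Its log2 fold change was -2.97 ± 0.38 (edgeR adjusted p = 0.535), and with the term -3.02 ± 0.32 (edgeR adjusted p = 5.65e-17). It also passed without the term when knockout 1 (edgeR adjusted p = 0.00021) or knockout 3 (edgeR adjusted p = 6.28e-08) was left out. Over all cells it was -0.94, and it was 0.026 without knockout 1, so the size of this difference rests on leaving the deep barcodes out. Ccl4, a chemokine gene, stood at 93.9 CPM in knockout 1 and 194 CPM in knockout 3, against 385 CPM in control 1 and 594 CPM in control 3. Of 9 markers of conventional NK cells tested, 3 were lower and none higher in the fit with the term. This list shares genes with the NK receptor list, Ncr1 among them, so the counts are not separate results. Itga2, among the 3, stood at 22.9 CPM in knockout 1 and 17.8 CPM in knockout 3, against 116 CPM in control 1 and 38.6 CPM in control 3. Hepatocyte markers were below 0 in 11 of 12, with none called. The part of these marker genes in the result was not tested.

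Il12rb2 and Plac8 were called higher in knockout cells in the fit with the term. Il12rb2 stood at 267 CPM in knockout 1 and 316 CPM in knockout 3, against 106 CPM in control 1 and 146 CPM in control 3. Its log2 fold change was 1.15, and 1.18 ± 0.31 with the term (edgeR adjusted p = 0.0304). Plac8, a gene of the NKT2 list, stood at 566 CPM in knockout 1 and 358 CPM in knockout 3, against 121 CPM in control 1 and 265 CPM in control 3. Neither gene had overlapping groups. Of the 6361 genes, 15.8% were higher in both knockout libraries than in both control libraries and 14.4% were lower in both.

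The targeted gene was not lower in knockout NKT-like cells. Nr4a1 stood at 170 CPM in knockout 1 and 116 CPM in knockout 3, against 75.9 CPM in control 1 and 65.8 CPM in control 3 (log2 fold change 1.01 ± 0.31, edgeR adjusted p = 1, and 0.372 with the term). The floxed part of the gene is not given in the sources used here, and a 3′ count need not change when it is deleted. In NK-type cells Nr4a1 stood at 212 CPM in knockout 1 and 89.2 CPM in knockout 3, against 76.7 CPM in control 1 and 45.7 CPM in control 3. Nr4a3, a related receptor, stood at 27.9 CPM in knockout 1 and 64.2 CPM in knockout 3, against 15.2 CPM in control 1 and 19.3 CPM in control 3. Nr4a2 stood at 22.9 CPM in knockout 1 and 35.6 CPM in knockout 3, against 228 CPM in control 1 and 39.7 CPM in control 3, so the difference came mainly from control 1. It was the 1 immediate early gene called in the fit with the term, at -1.64 on the log2 scale (edgeR adjusted p = 0.0166). Of 23 immediate early genes, 18 had fold changes above 0, with a median log2 fold change of 0.55, and none was called without the term.

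The NKT subset lists showed no common direction between the groups. Of 20 NKT1 genes 9 had log2 fold changes above 0 in knockout cells, of 10 NKT2 genes 6 and of 10 NKT17 genes 3, with none called without the term. With it, 1 NKT1 gene was higher and 3 lower, 1 NKT2 gene was higher and no NKT17 gene was called. Tbx21 stood at 256 CPM in knockout 1 and 185 CPM in knockout 3, against 202 CPM in control 1 and 218 CPM in control 3. Il4 stood at 147 CPM in knockout 1 and 210 CPM in knockout 3, against 45.5 CPM in control 1 and 184 CPM in control 3. Rora, an NKT17 list gene, stood at 716 CPM in knockout 1 and 390 CPM in knockout 3, against 243 CPM in control 1 and 330 CPM in control 3, and did not pass.

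**Figure D5:**
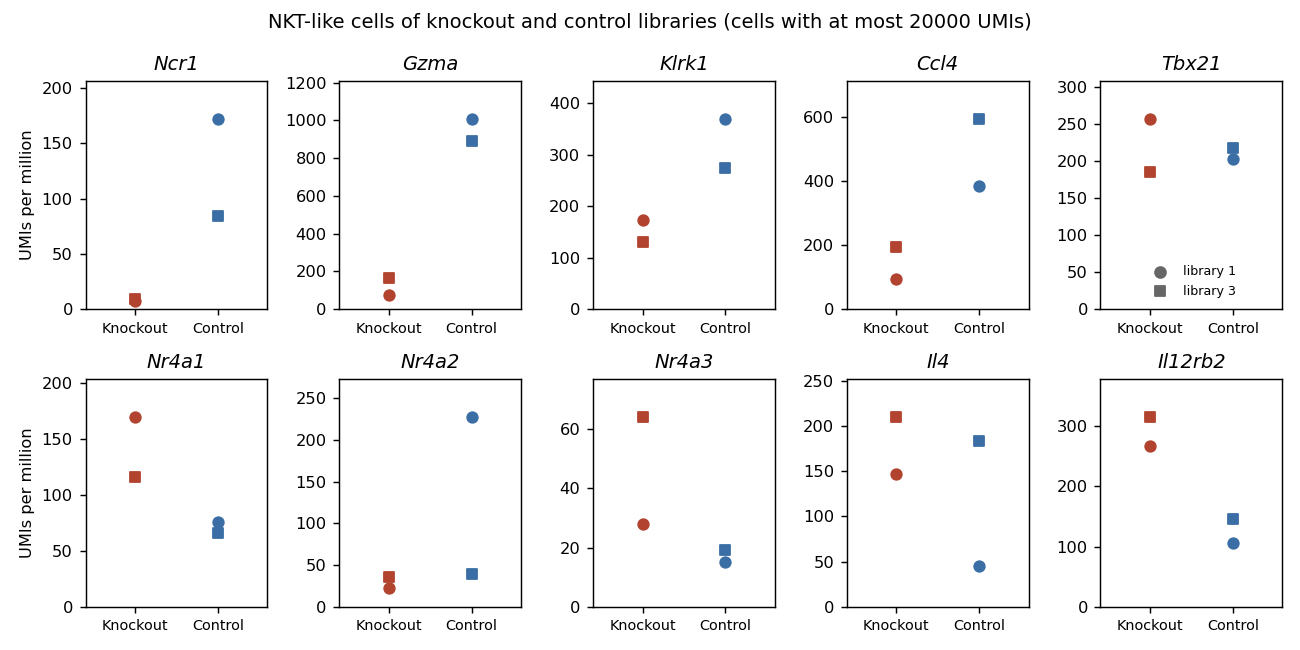
Levels in CPM of 10 genes in NKT-like cells of at most 20000 UMIs, 1 point per library (circles for libraries 1, squares for libraries 3), knockout left of control. Ncr1 was at 7.62 and 8.91 CPM in knockout libraries 1 and 3, against 172 and 84.0 CPM in control libraries 1 and 3, and Tbx21 overlapped.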

How the data were processed

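The deposited matrices hold UMI counts per gene and barcode from 10x 3′ libraries, for which the authors ran Cell Ranger 7.0.1 on libraries 1 and 2 and 9.0.1 on library 3, per the file headers; the build was GRCm39, per the submitters' processing notes. Libraries 1 and 2 hold called cells only. The members and gene lists were chosen with earlier results of these data known. No label says that replicates came from separate cultures or days, so p-values measure the spread between these libraries.

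Counts were summed per library and set and tested with edgeR 4.0.16 in R 4.3.3 (TMM, filterByExpr, quasi-likelihood, Benjamini-Hochberg, threshold 0.05), with library as a term between sets, in libraries with at least 10 cells of each set; DESeq2 1.42.0 was an alternative. CPM are counts per 1000000 UMIs of a set in a library. The fits in cells of at most 20000 UMIs were run on simulated sums with 1 spread for all genes and no difference between libraries. The fits over all cells and the knockout fit with the replicate number as a term were not simulated. Scrublet marked almost no doublets, so the highest scores (0.8% per 1000 barcodes) and hashtag multiplets were left out only as an alternative. Tags were scaled to background, and a multiplet had 2 tags at 2 times the lowest tag of its barcode. Knockout 3, with 2 tags, could not give a multiplet by this measure. It marked 821 barcodes of control 3 and 0 of knockout 3. Such a high score was held by 18 members, and 18, all from control 3, were multiplets. The named genes are Nr4a1, Nr4a2, Nr4a3, the 8 smallest p per direction (5 where fewer than 5 passed), 2 per list, and the marker genes described without a test.

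Intervals are exact 95% binomial. Some genes of the lists are counted but not reported by name here. Gene segments came from GENCODE on GRCm38. No column of another series was present.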

Additional observations from a re-analysis of the deposited data

How the results depend on the processing

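The knockout against control share difference stayed at 0.851 to 8.17 points over other denominators, thinning and doublet removal. When leaving out 1 library it was 2.70 to 8.24 points, lowest without control 2. The exact permutation test cannot go under p = 0.1 in any of these settings, and it reached that value without control 1. The thinned difference of 6.8 points rests in part on knockout 2, with 1 of 6 CD3 barcodes. Same-numbered pairs gave p = 0.5 in an exact permutation test (smallest possible 0.25). Libraries 1 and 3 form only 2 pairs, with deviations correlated at 0.137 over all cells and 0.471 in cells of at most 20000 UMIs. A replicate block in the gene fit gave 0 genes over all cells and 38 in cells of at most 20000 UMIs.

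The count of genes changed by knockout, 0, was 44 with no filter on low counts, 0 to 49 when leaving out 1 library (49 without control 3), and 0 to 68 when leaving out 1 library in cells of at most 20000 UMIs (22 without knockout 1, 68 without knockout 3). With mice as units it was 0, in a fit of 7 units that counts mice sharing a library as separate. Against Zbtb16-negative T cells the count of 1693 was 986 with DESeq2, 2787 with no filter, 341 at the 20000 UMI limit, 176 to 2923 when leaving out 1 library and 125 to 408 with both (180 without knockout 1, 179 without control 3). Against CD4 T cells the count of 4 was 62 with DESeq2, 141 with no filter, 0 with at least 2000 UMIs per cell, 514 at the limit, 0 to 381 when leaving out 1 library and 300 to 544 with both (330 without control 3). Against NK-type cells the count of 21 was 207 with DESeq2, 354 with no filter, 33 without doublets, 37 with at least 2000 UMIs per cell, 808 at the limit, 0 to 39 when leaving out 1 library and 329 to 832 with both (563 without knockout 1, 558 without knockout 3). The cause of these shifts was not tested.

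Of 1329 values of named genes under the alternatives, 978 kept their direction and side of the threshold, 276 newly passed, 52 no longer passed and 23 changed sign. Gzma by knockout, -0.94 over all cells, was 0.026 without knockout 1 and -3.96 without knockout 3. Nr4a1 against Zbtb16-negative cells was 0.429 at the limit, and there 0.371, 0.394, 0.471 and 0.482 when leaving out 1 library. Nr4a3 there was 0.344 at the limit, -0.989 without knockout 3, 0.202 without control 3, and 0.387, 0.380 and 0.908 at the limit without knockout 1, control 1 and control 3. Against CD4 T cells Nr4a1 was -0.272 without knockout 1, -0.339 without knockout 3, 1.233 without control 3 and -0.032 at the limit without knockout 3. Nr4a2 there was 0.298 without knockout 1, -1.531 without knockout 3 and 0.351 at the limit without knockout 1. Against NK-type cells Nr4a1 was 0.208 at the limit, 0.229 without knockout 1, -0.366 without knockout 3, and 0.362, 0.121, 0.210 and 0.063 at the limit when leaving out 1 library, and Nr4a3 was 0.184 at the limit without control 3. None of these sign changes passed the threshold.

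Members number 38 to 153 per library under the limit, so shares of rare genes rest on few cells. At this depth a gene not seen in a cell need not be absent from it.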
